A study of Mus musculus with 2 samples.

Results

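Interferon response genes were examined in muscle stem cells (satellite cells, which express Pax7 and repair muscle fibres) of male C57BL/6 mice. The 47 genes were chosen by symbol as known parts of the pathway. No threshold on these values was used, but earlier results of these data were known. All 47 were found among the 24532 gene IDs of the deposited table. They comprise 4 interferon receptor chains, 7 transcription factors, 4 nucleic acid sensors, 14 antiviral effectors, 7 genes of the ISG15 system and other induced genes, and 11 interferon-induced GTPases. The dKO library came from mice that joined Pax7-CreER, a tamoxifen-inducible Cre recombinase driven by Pax7, with Esr2-/- (both alleles of the gene of estrogen receptor beta lost) and a gene that Cre can delete. The WT library came from mice labelled wild type. Per the labels' protocols, tamoxifen at 20 mg/mL was fed for 5 consecutive days to mice aged 3 months, and it is not stated whether WT mice received it, whether they carried Cre or whether animals were pooled. Both titles bear a 6M, which the labels do not explain. Cre activity follows Pax7, so deletion is directed to the stem cells, whereas Esr2-/- is written without a restriction to a cell type. The cells were sorted for Vcam1 and against CD31 (endothelial), CD45 (blood) and Sca1 (mesenchymal) and were not cultured.

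Type I interferons act through the receptor chains Ifnar1 and Ifnar2, and type II interferon acts through Ifngr1 and Ifngr2. Janus kinases then activate STAT proteins, which bind the interferon-stimulated response element (ISRE) in a complex with Irf9, or the gamma-activated site (GAS) as dimers. The induced proteins block steps of viral replication or, as the immunity-related and guanylate-binding GTPases do, act on membranes around intracellular pathogens. In muscle precursor cells, interferon gamma is known to repress myogenic genes.

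There was 1 library per genotype, so no difference below has a replicate check or a test, and each statement compares these 2 libraries. The dKO library held 43699831 and the WT library 36636680 read counts. A gene's level is the sum of its transcript rows in CPM (counts per mega-read of scaled library size), its fold is the ratio of CPM, and intervals cover 95% of counting error only. A gene was measured if either library had 10 or more counts (14885 genes), and 2-fold apart if its log2 ratio, (dKO CPM + 1) over (WT CPM + 1), reached 1 or −1. Esr2 had 45 counts in the library labelled dKO and 71 in WT, or 1.12 CPM in dKO and 1.77 CPM in WT. Reads of Esr2 were thus present in dKO, and gene totals cannot show whether a deleted part is missing, so they do not check the label. Muscle stem cell markers were abundant in both libraries, with a summed level of 14090 CPM in dKO and 10799 CPM in WT for 14 genes. Of these sums, Sdc4 alone held 4872 CPM in dKO and 2980 CPM in WT. Of the 14 log2 ratios, 7 were above 0 and 7 below, with a median of 0.11. The median was −0.26 with a trend on level and transcript length removed. Pax7 had 315 CPM in dKO and 558 CPM in WT, Vcam1 had 1059 CPM in dKO and 595 CPM in WT, and Myod1, the master regulator of the myogenic lineage, had 422 CPM in dKO and 135 CPM in WT.

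By the 2-fold rule, 4 of 11 GTPases, 2 of 14 antiviral effectors and 2 of 7 transcription factors were higher in dKO, 2 effectors were lower, and no receptor chain, sensor or ISG15 group gene was apart. Of the 47 members, 8 were higher in dKO by 2-fold, against 1.92% of all measured genes, and 2 were lower, against 4.3%. The 8 were Irgm1, Gbp2, Igtp and Gbp3 among the GTPases, Ifit3 and Ifit1 among the effectors, and the transcription factors Irf7 and Irf8. Rsad2 and Oas2, both antiviral effectors, were the lower ones. The median log2 ratio of the members was 0.21, with 32 of 47 above 0, beside −0.02 for all measured genes. Under library totals alone, all genes shifted by −0.22 in their median, the members' median was −0.047, 9 members (Irf2, Irf3, Stat2, Ddx58, Ifitm1, Ifitm2, Mx2, Gbp7 and Trim25) were below 0 instead of above, and 2 members were higher and 2 lower, against 0.873% and 6.99% of all measured genes. By the highest row of each gene, 10 were higher and 2 lower, against 3.19% and 6.3%. With a trend on level and transcript length removed, 8 were higher and 0 lower, against 2.06% and 2.79%. At 1.5-fold, 15 were higher and 3 lower, against 8.98% and 13.1%. All members were measured, but Mx1 passed the count minimum through the dKO library alone, and 46 had at least 10 counts in both libraries. Irf8 just reached the 2-fold line (1.0), and Mx1 (0.98) and Ifi47 (0.97) fell just short of it. The plot of levels by role shows the range in dKO, from 0.375 CPM for Ifi44 to 482 CPM for Ifitm3.

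**Figure D1:**
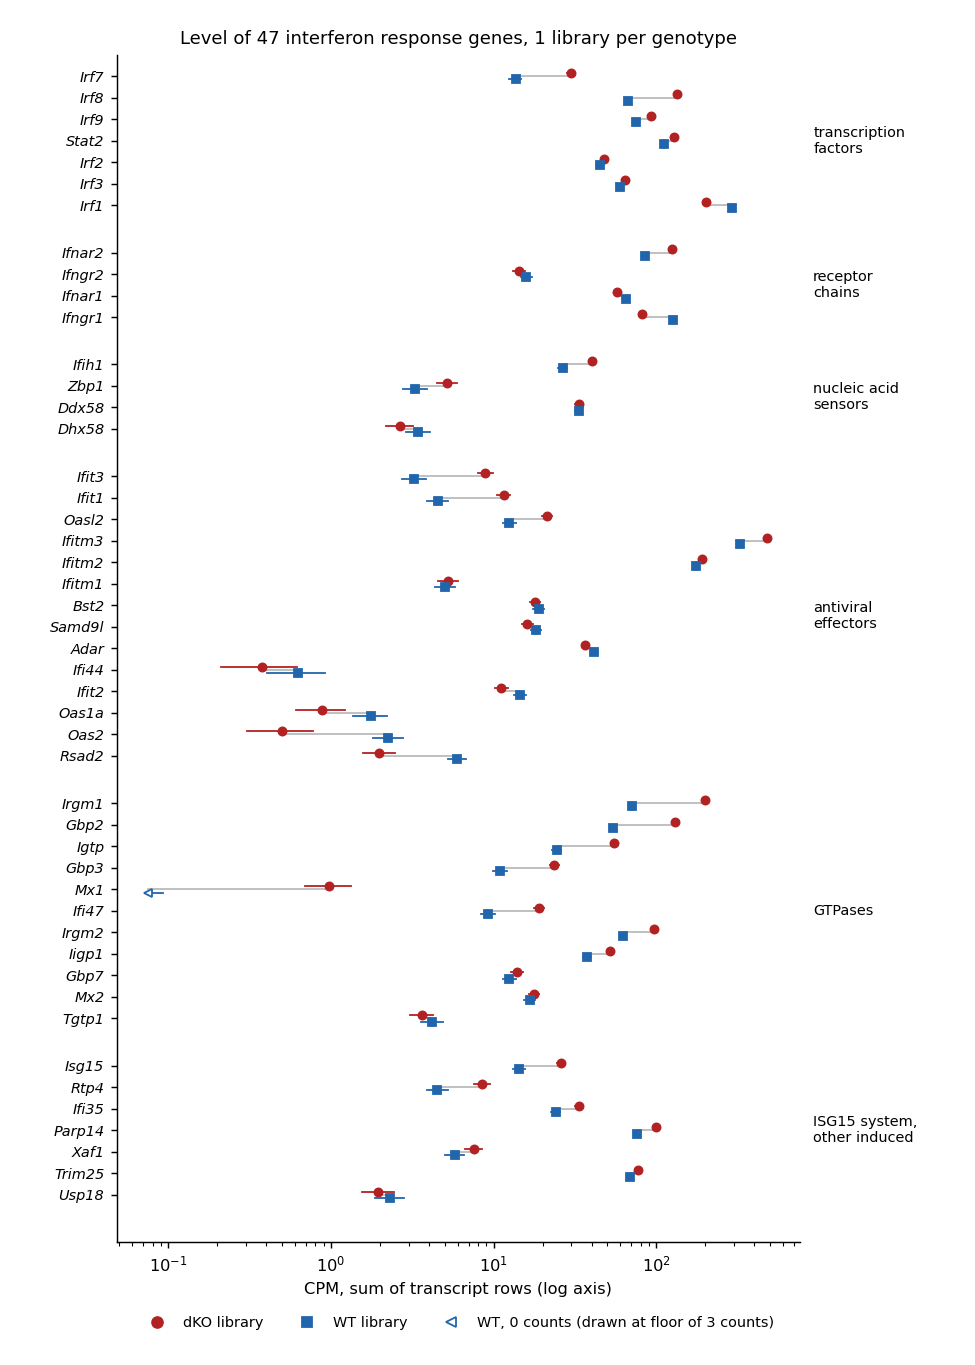
CPM of each member (sum of transcript rows, log axis) in the dKO library (red circles) and the WT library (blue squares), by role, with 95% Poisson intervals, which cover counting error only; the open triangle places Mx1, with 0 WT counts, at the floor of 3 counts. The dKO circle lies right of the WT square for 10 of 11 GTPases and for 6 of 14 antiviral effectors (8 and 4 under library totals).

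Interferon genes themselves were close to undetected. Of 21 ligand genes, 16 had 0 counts in both libraries. The highest was Ifnab, with 11 counts in dKO and 4 in WT, and the interval of its fold (2.75, 0.815 to 11.8) includes no difference. Ifnb1, the gene of interferon beta, had 5 counts in dKO and 3 in WT, and Ifng, the gene of type II interferon, had 0 in each. A count of 0, set to the floor of 3 counts, allows up to 0.075 CPM in each library. No other ligand reached 10 counts in either library.

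Receptor chain genes were present in both libraries and none was 2-fold apart. Ifngr1, the ligand-binding chain of the type II receptor, had 3275 counts in dKO and 5086 in WT, which is 81.8 CPM in dKO and 127 CPM in WT, and was 1.55-fold lower in dKO (1.49 to 1.62). Ifngr2, its signalling partner, had 571 counts in dKO and 634 in WT, and its 1.11-fold lower level had an interval of 0.99 to 1.25, which includes no difference. The type I chains went in opposite directions. Ifnar2 had 4997 counts in dKO and 3385 in WT and was 1.48-fold higher (1.41 to 1.54). Ifnar1 had 2280 counts in dKO and 2614 in WT, a log2 ratio of −0.19. Per kilobase of transcript, levels in dKO ran from 6.89 CPM for Ifngr2 to 60.2 CPM for Ifnar2, and in WT from 7.66 CPM for Ifngr2 to 60.3 CPM for Ifngr1.

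Among the transcription factors, Irf7 and Irf8 were higher in dKO and Irf1 was lower, with the others close in level. Irf7, which drives interferon alpha transcription and is itself interferon-induced, had 1199 counts in dKO and 545 in WT, or 30.0 CPM in dKO and 13.6 CPM in WT, and was 2.20-fold higher (1.99 to 2.44). Irf8, best known for its role in myeloid cells, had 5377 counts in dKO and 2667 in WT, or 134 CPM in dKO and 66.7 CPM in WT, and was 2.02-fold higher (1.92 to 2.11). Both were higher by the sum of rows and by the highest row (log2 ratios of 1.28 for Irf7 and 1.01 for Irf8 by the highest row). With a trend on abundance and transcript length removed, Irf8 had a log2 ratio of 0.82 and Irf7 one of 1.04.

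Irf1, an early target of the type II response, was the most abundant factor, at 202 CPM in dKO and 293 CPM in WT (8101 counts in dKO and 11711 in WT), and was 1.45-fold lower (1.41 to 1.49). Irf9 and Stat2, which are in the complex that binds the ISRE, differed less. Irf9 was 1.24-fold higher (1.19 to 1.31; 3704 counts in dKO and 2977 in WT), and Stat2 was 1.15-fold higher (1.11 to 1.2; 5161 counts in dKO and 4470 in WT), though its log2 ratio was −0.047 under library totals. Irf3, which is activated by phosphorylation and not by induction, had 63.8 CPM in dKO and 60.1 CPM in WT, and its log2 ratio was 0.08 by the sum and −0.23 by its highest row. Irf2, an antagonist of Irf1, had 1912 counts in dKO and 1792 in WT, or 47.8 CPM in dKO and 44.8 CPM in WT. Per kilobase of transcript, the level of Irf1 was 94.7 CPM in dKO and 137 CPM in WT, above Irf8 at 47 CPM in dKO and 23.3 CPM in WT. The median log2 ratio of the 7 factors was 0.21, and −0.05 under library totals.

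Signal genes outside the 47 were described from a list of 12, of which 11 were measured and 0 were 2-fold apart in either direction by the sum of rows. By the highest row, 3 were higher (Jak2, Stat3 and Socs1) and 1 was lower (Tyk2), against 3.19% and 6.3% of all measured genes. That row of Tyk2 had 19 counts in dKO and 961 in WT, while the sum of its rows had 617 in dKO and 965 in WT. Under library totals 2 were lower, against 6.99%. The abundant members of the list were Stat3, which serves interleukin-6 family cytokines, at 1785 CPM in dKO and 902 CPM in WT (log2 ratio 0.98), and the inhibitor gene Socs3, at 1173 CPM in dKO and 2130 CPM in WT (log2 ratio −0.86). The list median was 0.22, and −0.04 under library totals.

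Of the 4 sensor genes, Ifih1 and Zbp1 were higher in dKO by less than the 2-fold rule, and Ddx58 was nearly equal. Ifih1 encodes MDA5, a sensor of long double-stranded RNA. It had 1616 counts in dKO and 1060 in WT, or 40.4 CPM in dKO and 26.5 CPM in WT, and was 1.52-fold higher (1.41 to 1.65). Ddx58 encodes RIG-I, which senses RNA ends, and had nearly equal counts (1334 in dKO and 1332 in WT, fold interval 0.927 to 1.08). Dhx58, which encodes the related regulator LGP2, had 106 counts in dKO and 137 in WT, a log2 ratio of −0.28. Zbp1, a sensor of Z-form nucleic acid that can start necroptosis, had 207 counts in dKO and 132 in WT (1.57-fold, 1.25 to 1.97). Among 16 further genes of nucleic acid sensing (Toll-like receptors, the DNA sensor cGAS, adaptors, kinases, nucleic acid-degrading and related enzymes and Irf5), 15 were measured and 0 were 2-fold apart, with a median log2 ratio of −0.04. Myd88, an adaptor of Toll-like receptors, had 254 CPM in dKO and 205 CPM in WT, and Tank, a TBK1-binding adaptor, 80.4 CPM in dKO and 45.7 CPM in WT.

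Among the antiviral effectors, Ifit3 and Ifit1, whose proteins bind viral RNA, were higher in dKO by the 2-fold rule, while the oligoadenylate synthetase gene Oas2 and Rsad2, the gene of viperin, were lower. Both the Ifit and the Oas genes held members on either side. Ifit1 had 460 counts in dKO and 181 in WT, or 11.5 CPM in dKO and 4.52 CPM in WT, and was 2.54-fold higher (2.13 to 3.03). Ifit3 had 356 counts in dKO and 130 in WT, or 8.90 CPM in dKO and 3.25 CPM in WT, and was 2.74-fold higher (2.23 to 3.37). Ifit2, the third gene of the family among the members, went the other way, with 446 counts in dKO and 582 in WT (1.31-fold lower, 1.15 to 1.48). These 3 genes are neighbours on chromosome 19 of GRCm38, with Ifit2 at 34550550 to 34576534, Ifit3 at 34583119 to 34588982 and Ifit1 at 34640889 to 34650009. Reads of Ifit3 and of its near-identical copy Ifit3b (107 counts in dKO and 53 in WT) may have been divided between them.

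Rsad2, whose enzyme makes a chain-terminating nucleotide, had 79 counts in dKO and 239 in WT, or 1.97 CPM in dKO and 5.97 CPM in WT, and was 3.03-fold lower (2.34 to 3.95). Oas2 had 20 counts in dKO and 90 in WT and was 4.5-fold lower (2.75 to 7.72). Both were also lower by the highest row, but with the trend on abundance and length removed their log2 ratios were −0.93 and −0.76, inside the 2-fold line. Oas1a, at 35 counts in dKO and 70 in WT, had a 2.0-fold lower CPM (1.32 to 3.09) and a log2 ratio of −0.55, since the added 1 CPM weighs on such low levels. The oligoadenylate synthetase-like gene Oasl2 was on the other side, with 852 counts in dKO and 499 in WT (1.71-fold higher, 1.53 to 1.91).

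Ifitm3 had the highest CPM of the 47 in both libraries. It is an interferon-induced transmembrane gene, whose proteins block viral entry at the endosome. It had 19282 counts in dKO and 13150 in WT, or 482 CPM in dKO and 329 CPM in WT, and was 1.47-fold higher (1.43 to 1.5). Per kilobase of its short transcript, its level was 744 CPM in dKO and 507 CPM in WT. Ifitm2 had 190 CPM in dKO and 176 CPM in WT, and Ifitm1 5.25 CPM in dKO and 5.05 CPM in WT. The Ifitm3 log2 ratio of 0.55 was −0.06 with the trend on abundance and length removed. The highest eighth of all measured genes by level had its median at 0.29, and the second-lowest eighth at −0.21. Bst2 (tetherin, which holds budding virions at the cell surface), Samd9l (a restriction factor of poxviruses) and Adar (an RNA-editing deaminase) had log2 ratios of −0.07, −0.18 and −0.18. Ifi44 was at the lower end of detection, with 15 counts in dKO and 25 in WT, and its interval includes no difference (1.67-fold lower, 0.845 to 3.40). Across the 14 effectors, 2 were higher, 2 lower and 10 neither, and the median log2 ratio of −0.12 was 0.0089 by the highest row.

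The promoters of Ifit1, Ifit3 and Rsad2 are shown because these genes are among the 6 most different members with a promoter window, and they lay on opposite sides of the comparison. They are the 250 bases before the annotated start (sequence from RefSeq, GRCm38.p6), for Ifit1 chr19:34640639-34640888 on the plus strand, for Ifit3 chr19:34583279-34583528 on the plus strand and for Rsad2 chr12:26456453-26456702 on the minus strand, read in the direction of the gene. Capitals mark matches, on either strand, to the ISRE core, searched as GAAA, any 2 bases and GAAA.
Ifit1: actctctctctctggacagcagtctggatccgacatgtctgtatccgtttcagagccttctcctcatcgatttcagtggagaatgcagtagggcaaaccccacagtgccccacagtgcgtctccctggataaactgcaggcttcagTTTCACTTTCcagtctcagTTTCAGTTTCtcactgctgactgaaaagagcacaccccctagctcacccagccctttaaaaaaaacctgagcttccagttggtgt
Ifit3: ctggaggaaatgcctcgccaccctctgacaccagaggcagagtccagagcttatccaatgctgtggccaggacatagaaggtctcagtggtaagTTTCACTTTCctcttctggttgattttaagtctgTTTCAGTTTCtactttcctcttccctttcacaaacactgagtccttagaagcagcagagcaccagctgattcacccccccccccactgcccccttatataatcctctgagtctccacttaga
Rsad2: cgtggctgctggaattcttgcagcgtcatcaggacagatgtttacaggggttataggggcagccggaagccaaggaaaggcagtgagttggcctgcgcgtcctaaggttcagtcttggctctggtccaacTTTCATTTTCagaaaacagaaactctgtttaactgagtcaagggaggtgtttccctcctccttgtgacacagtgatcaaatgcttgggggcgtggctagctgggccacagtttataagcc
All 3 hold the motif on the opposite strand, with 2 matches in Ifit1, 2 in Ifit3 and 1 in Rsad2. The motif was thus present in the windows of both the higher genes and the lower one.

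The ISG15 system and the other induced genes leaned higher without passing the 2-fold line, with 6 of 7 log2 ratios above 0 (5 under library totals) and a median of 0.39 (0.14 under library totals). Isg15, a ubiquitin-like modifier, had 1037 counts in dKO and 571 in WT, or 25.9 CPM in dKO and 14.3 CPM in WT (1.82-fold higher, 1.64 to 2.01). Usp18, which removes Isg15 from proteins and dampens type I receptor signalling, had 78 counts in dKO and 92 in WT, and its interval includes no difference (1.18-fold lower, 0.863 to 1.62). Trim25, a ubiquitin ligase of the RIG-I pathway, had 77.5 CPM in dKO and 69.0 CPM in WT. The ADP-ribosyltransferase gene Parp14 was the most abundant of the group, at 99.9 CPM in dKO and 76.0 CPM in WT. Rtp4, a receptor transporter gene, had 339 counts in dKO and 180 in WT (1.88-fold, 1.57 to 2.27). Its annotated span overlaps that of Masp1, which had 0 counts in dKO and 46 in WT. Ifi35 and Xaf1, an apoptosis-related gene, had log2 ratios of 0.45 and 0.33.

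The 11 GTPases had a median log2 ratio of 0.97, with 4 of 11 higher in dKO by 2-fold, 0 lower and 10 above 0 (1 higher, Irgm1, and 8 above 0 under library totals). Mx1 is among these although it passed the count minimum through dKO alone. Without it the median was 0.80, with 4 of 10 higher and 9 above 0. Their summed level was 612 CPM in dKO and 302 CPM in WT. The median was 0.98 after removal of the trend on level and length, and 0.73 by library totals. Irgm1, a regulatory immunity-related GTPase that controls autophagy and the other GTPases of its family, had 8006 counts in dKO and 2827 in WT, or 200 CPM in dKO and 70.7 CPM in WT. It was 2.83-fold higher (2.71 to 2.96), the highest fold among members with counts in both libraries. Igtp (Irgm3), of the same regulatory group, had 2182 counts in dKO and 977 in WT, or 54.5 CPM in dKO and 24.4 CPM in WT, and was 2.23-fold higher (2.07 to 2.41). Irgm2, the remaining regulatory gene, had 3858 counts in dKO and 2477 in WT (1.56-fold higher, 1.48 to 1.64), so it went in the same direction with a smaller difference.

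Among the effector GTPases of this family, which load onto vacuoles of pathogens, Iigp1 had 2080 counts in dKO and 1499 in WT (1.39-fold higher, 1.30 to 1.48). Tgtp1 had 145 counts in dKO and 167 in WT, and its interval includes no difference (1.15-fold lower, 0.917 to 1.45). Reads of Tgtp1 and its near-identical copy Tgtp2 (211 counts in dKO and 224 in WT) may have been divided, and neither was higher. Ifi47 (Irg47) had 763 counts in dKO and 370 in WT, or 19.1 CPM in dKO and 9.25 CPM in WT, and was 2.06-fold higher (1.82 to 2.34). Ifi47 lies with Irgm1 and Tgtp1 on chromosome 11 of GRCm38 (Irgm1 at 48865245 to 48871420, Tgtp1 at 48985329 to 48992246 and Ifi47 at 49076587 to 49096987), so a gene that was not higher sits between the 2 that had more counts in dKO. Igtp (58199556 to 58207592) and Irgm2 (58214977 to 58222783) form a second site on that chromosome.

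The guanylate-binding proteins assemble on pathogen membranes and release their contents. Gbp2 had 5193 counts in dKO and 2162 in WT, or 130 CPM in dKO and 54.0 CPM in WT, and was 2.40-fold higher (2.28 to 2.53). Gbp3 had 945 counts in dKO and 438 in WT, or 23.6 CPM in dKO and 10.9 CPM in WT, and was 2.16-fold higher (1.92 to 2.42). Gbp7 had 558 counts in dKO and 499 in WT (1.12-fold, 0.989 to 1.26), so its interval includes no difference. The 3 genes are neighbours on chromosome 3 (Gbp7 at 142530336 to 142550151, Gbp3 at 142560016 to 142573213 and Gbp2 at 142620663 to 142638008), and members of this family are similar enough that reads may have been divided between them. The dynamin-like Mx genes restrict influenza and other viruses, and laboratory strains such as C57BL/6 carry defective copies. Mx2 had 17.7 CPM in dKO and 16.7 CPM in WT. Mx1 had 39 counts in dKO and 0 in WT. This is 13.0-fold higher when WT is set to the floor of 3 counts, and the interval of its fold starts at 10.1.

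**Figure D2:**
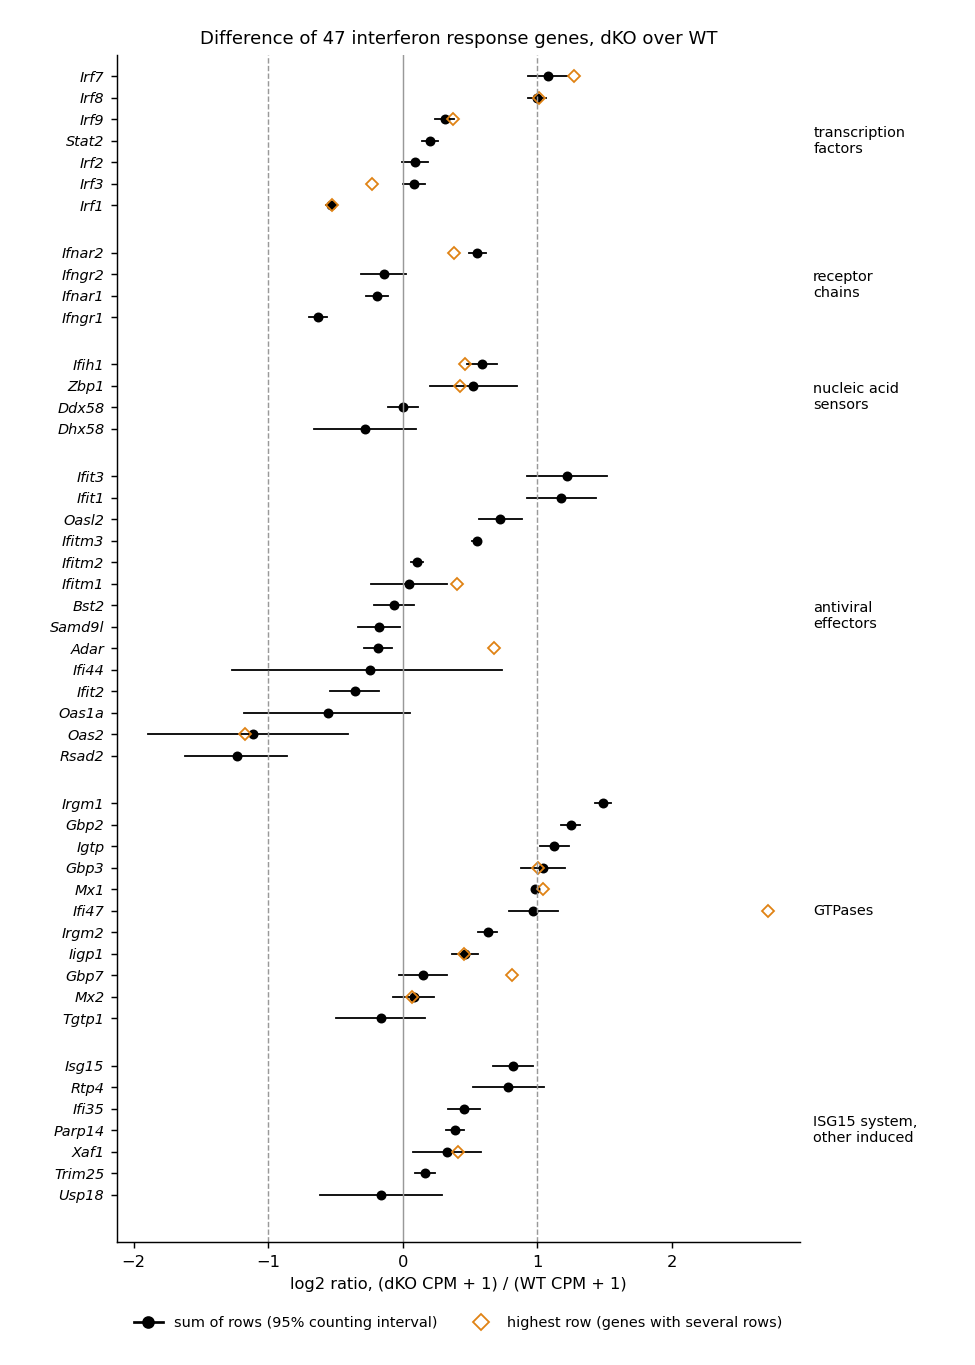
Log2 ratio of (dKO CPM + 1) over (WT CPM + 1) for each member by role, as the sum of transcript rows (black, with 95% counting interval; none is drawn for Mx1, with 0 WT counts) and as the highest row (orange diamonds, genes with several rows), with dashed lines at the 2-fold rule. By the sum, 8 members lie beyond the right line and 2 beyond the left one; Ifi47 stands at 0.97 by the sum and 2.72 by its highest row.

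The other 3 of those 6 members are GTPases. They are the 250 bases before the start (RefSeq, GRCm38.p6) of Irgm1 (chr11:48871421-48871670, minus strand), Gbp2 (chr3:142620413-142620662, plus strand) and Igtp (chr11:58199306-58199555, plus strand). Capitals again mark the ISRE core on either strand.
Irgm1: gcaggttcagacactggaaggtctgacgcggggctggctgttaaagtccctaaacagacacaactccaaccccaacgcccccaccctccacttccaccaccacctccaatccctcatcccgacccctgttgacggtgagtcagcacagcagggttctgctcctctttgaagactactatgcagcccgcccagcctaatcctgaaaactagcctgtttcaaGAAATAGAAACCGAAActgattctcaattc
Gbp2: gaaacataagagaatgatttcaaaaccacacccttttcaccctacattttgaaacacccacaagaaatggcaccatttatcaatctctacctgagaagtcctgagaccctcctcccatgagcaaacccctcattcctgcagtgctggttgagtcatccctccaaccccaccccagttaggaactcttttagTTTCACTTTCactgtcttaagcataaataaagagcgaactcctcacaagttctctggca
Igtp: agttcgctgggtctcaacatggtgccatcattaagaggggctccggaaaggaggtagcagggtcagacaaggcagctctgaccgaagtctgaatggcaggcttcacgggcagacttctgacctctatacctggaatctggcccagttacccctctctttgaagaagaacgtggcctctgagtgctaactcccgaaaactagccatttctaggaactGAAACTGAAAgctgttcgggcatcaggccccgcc
In Irgm1, 2 matches overlap into a single run close to the start, and Gbp2 and Igtp hold 1 each.

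Of the 38 members with a window of 250 bases before to 50 bases after the start in the RefSeq promoter table, 19 held an ISRE core (50%), against 3.99% of all 27025 genes of that table. The GAS core TTCNNNGAA, which reads the same on both strands, was found in 15 of the 38 (39.5%), against 9.55% of all genes, and 8 members held both. As the members were chosen as known parts of the interferon pathway, these shares describe that choice and test nothing about the libraries. By role, the ISRE core was in 7 of 8 GTPases, 7 of 13 effectors, 2 of 2 sensors, 2 of 7 transcription factors, 1 of 4 genes of the ISG15 group and 0 of 4 receptor chains. The log2 ratios of the 19 members with the ISRE core had their median at 0.55, with 6 higher and 1 lower by 2-fold. Those of the 19 without it had theirs at 0.08, with 2 higher and 0 lower. As 7 members with the core are GTPases and 0 are receptor chains, motif and role overlap, and their parts were not tested. Over all measured genes with a window, the median was 0.02 with the ISRE core, with 14 higher and 18 lower of 432 genes, and −0.03 without it, with 217 higher and 431 lower of 11183 genes. The 15 members with a GAS core had their median at 0.09, and the 23 without it at 0.31. Irf7 and Irf8 were the 2 higher members with no ISRE core in this window, and Irf8 and Irf1 held GAS cores. A match is a stretch of letters and not a shown binding site.

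**Figure D3:**
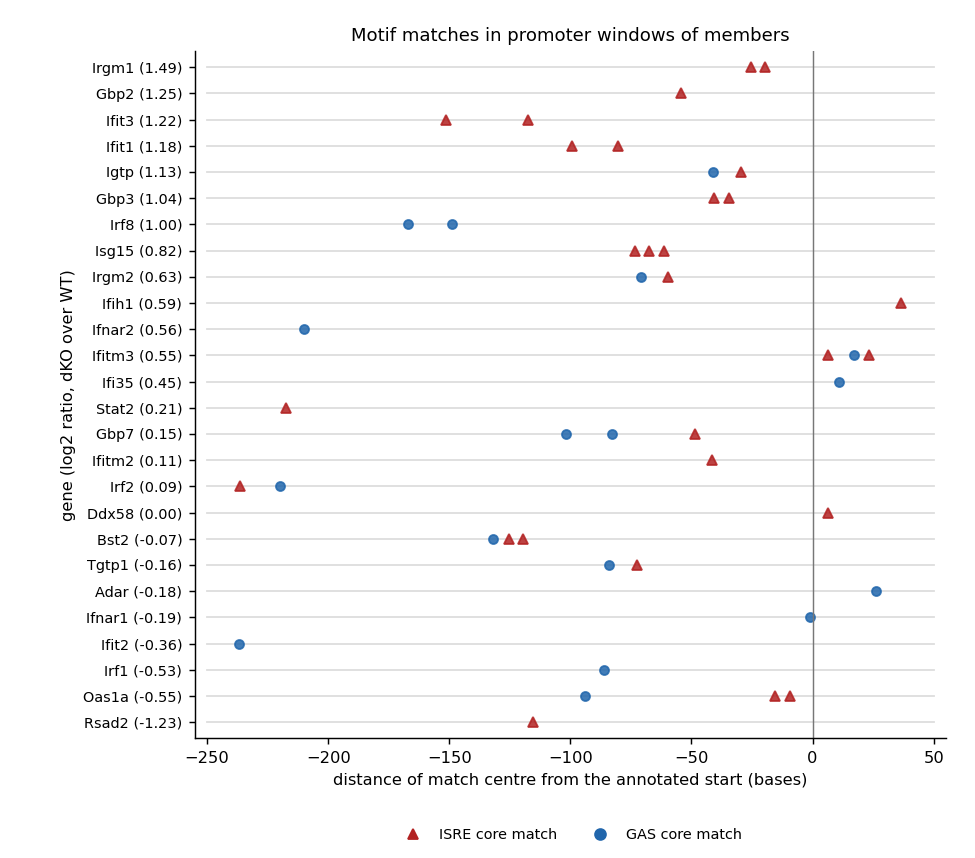
Position of ISRE core (red triangles) and GAS core (blue circles) matches, in bases from the annotated start, in the promoter windows of the members that hold either, ordered by log2 ratio of dKO over WT (in brackets). ISRE triangles are present both at the top (Irgm1, 1.49) and at the bottom (Rsad2, −1.23).

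In 3 immunity-related GTPase genes, a GAS core began 11 bases before an ISRE core. The stretches are shown side by side, with both cores in capitals, because their genes differed in the comparison. They lie at chr11:58199506-58199535 on the plus strand for Igtp, chr11:58214897-58214926 on the plus strand for Irgm2 and chr11:48992310-48992339 on the minus strand for Tgtp1.
Igtp: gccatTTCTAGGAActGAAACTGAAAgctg
Irgm2: gccatTTCCAGGAActGAAACTGAAAgctg
Tgtp1: gccatTTCCAGGAAtcGAAACTGAAAccta
The same arrangement was in the windows of 5 of 27025 genes, the others being Tgtp2 and Gm12185. Igtp was 2.23-fold and Irgm2 1.56-fold higher in dKO, while Tgtp1 had a log2 ratio of −0.16 and Tgtp2 one of −0.07. In the entry-blocking Ifitm genes, the first ISRE core with 10 bases on each side is given for Ifitm2 (chr7:140955988-140956017, minus strand) and Ifitm3 (chr7:141010723-141010752, minus strand).
Ifitm2: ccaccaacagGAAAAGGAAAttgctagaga
Ifitm3: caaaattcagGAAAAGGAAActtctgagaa
Both cores have the same letters but not the same position, at −46 to −37 from the annotated start in Ifitm2 and at 2 to 11 in Ifitm3. The Ifitm3 window holds 2 ISRE cores and 1 GAS core, that of Ifitm2 1 and 0. The fold was 1.08 (1.04 to 1.11, below 1 under library totals) for Ifitm2 and 1.47 (1.43 to 1.5) for Ifitm3.

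Of the 47 members, 18 had several transcript rows, and for some the rows differed more than the gene. All 763 dKO counts of Ifi47 were in the row of 1727 bases, which held 84 of 370 counts in WT, where the row of 1786 bases held 281. The gene was thus 2.06-fold higher by the sum, and its log2 ratio was 2.72 by the row of 1727 bases alone. Adar went the other way, since its row of 5832 bases held 12.2% of the gene's counts in dKO and 53.6% in WT, while the gene's log2 ratio was −0.18 by the sum and 0.68 by the highest row. In Gbp7, the row of 5622 bases had 0 counts in dKO and 200 in WT, and the log2 ratio by the highest row was 0.81. The labels do not say how reads were assigned among transcripts, and whether these row shares differ in the cells was not tested. Mx1 and Ifi47 are the 2 members whose side of the 2-fold line differs between the sum and the highest row.

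**Figure D4:**
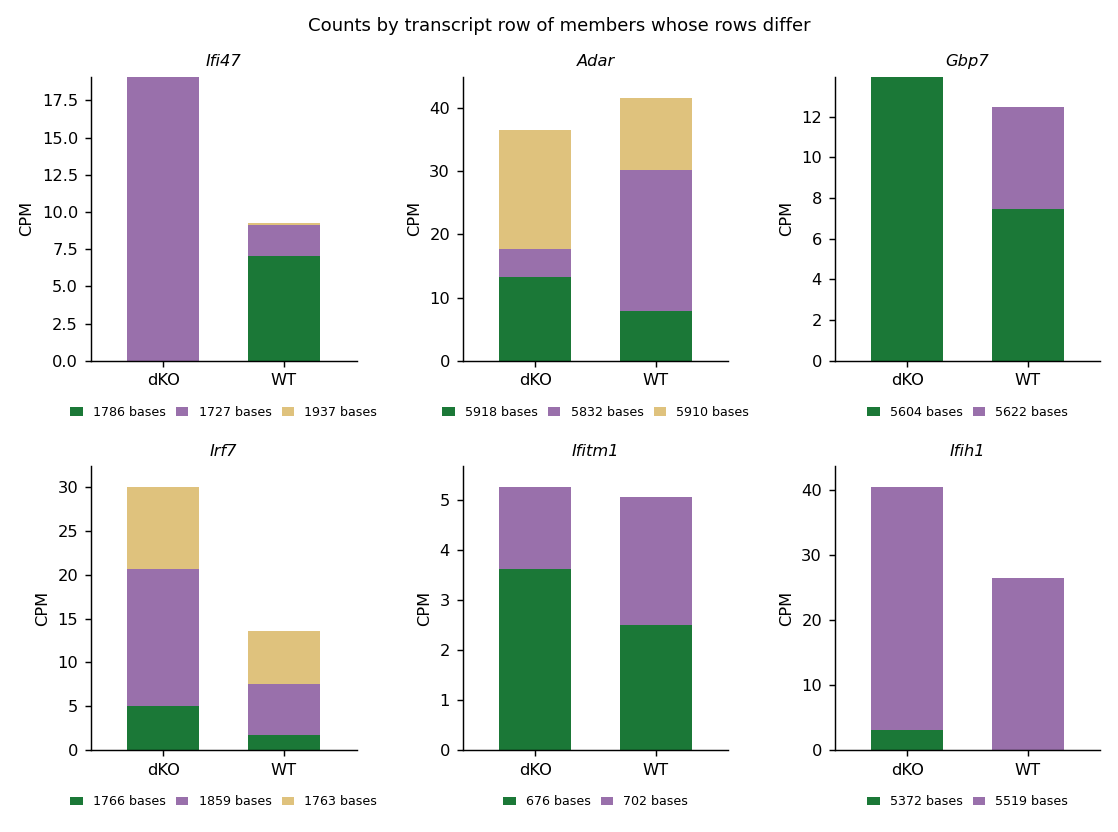
CPM by transcript row (stacked colours, named by row length) in the dKO library (left bars) and the WT library (right bars) for 6 members with several rows. The largest row differs between the libraries for Ifi47, Adar, Irf7 and Ifitm1. For Irf7 (236 and 242 counts) and Ifitm1 (100 and 102) the 2 rows are close in WT. A row of Gbp7 is at 0 in dKO alone, and the 3 rows of Irf7 are each higher in dKO.

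Interferon-induced genes outside the 47 did not share a direction. Of a further list of 52 such genes, 51 were in the table and 46 were measured, of which 2 were higher (4.35%, against 1.92% of all measured genes) and 3 lower (6.52%, against 4.3%) by the 2-fold rule. Their median was −0.0037 (−0.20 under library totals, where all genes shifted by −0.22). The higher genes were Nlrc5, the transactivator of MHC class I genes (356 counts in dKO and 123 in WT; 2.89-fold, 2.35 to 3.58), and the guanylate-binding gene Gbp6 (1695 counts in dKO and 707 in WT; 2.40-fold, 2.19 to 2.62). The lower ones were the giant GTPase gene Gvin1 (267 counts in dKO and 914 in WT, 3.42-fold lower, 2.98 to 3.94), Ifi27l2a (22 counts in dKO and 90 in WT) and Gbp10. The annotated span of Ifi27l2a contains that of Ifi27, which had 4593 counts in dKO and 3219 in WT. Gbp10 had 0 counts in dKO and 73 in WT, 24.3-fold lower against the floor of 3 counts (interval of the fold from 19.3). It passed the count minimum through WT alone, and its reads may have been divided with Gbp6. Of the 45 with at least 10 counts in both libraries, 2 were higher and 2 lower, against 260 and 553 of 13746 among all genes. The list held 7 measured GTPase genes, grouped after their values were seen, of which 2 were above 0 and 5 below. Among the 6 with at least 10 counts in both libraries, 2 were above 0. Of those below, Tgtp2 had an interval that includes no difference (1.06-fold lower, 0.876 to 1.29). By sign alone, most of these GTPases outside the 47 did not share the direction of most of those within. The 2 above 0, Gbp6 (1695 counts in dKO and 707 in WT) and Gbp5 (1230 in dKO and 761 in WT), each had more dKO counts than any of the 5 below. Gbp4 was 2.70-fold lower in CPM (1.96 to 3.77, with 53 counts in dKO and 143 in WT) with a log2 ratio of −0.98. Its highest row had 0 counts in dKO and 143 in WT, so its dKO and WT counts lay in different rows. Gbp9 was 1.58-fold lower (1.29 to 1.94), while Gbp5 was 1.62-fold higher (1.47 to 1.77).

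Immune and endothelial markers, against which the cells had been sorted, had lower levels in the dKO library. Most fibro-adipogenic markers were lower as well, with 8 of 10 log2 ratios below 0. By the 2-fold rule, 4.3% of all measured genes were lower in dKO and 1.92% higher. In the second-lowest eighth of genes by level, 10.0% were lower. Immune cell markers had a summed level of 83.8 CPM in dKO and 261 CPM in WT, with 18 of 22 measured genes lower by 2-fold, 0 higher and a median log2 ratio of −1.73. Of these, 4 (Fcer1g, Cx3cr1, S100a8 and S100a9) passed the count minimum through WT alone. Among the 18 with at least 10 counts in both libraries, 14 were lower, against 553 of 13746 among all genes. Of all 25 listed, 5 had 0 counts in dKO and 3 had 0 in WT. Among defining markers, Ptprc (CD45) had 17 counts in dKO and 200 in WT, Itgam 19 in dKO and 369 in WT, and Cx3cr1, S100a8 and S100a9 had 0 in dKO. Cd68, Cd14, Itgax and Cd79a stayed inside the 2-fold line, with log2 ratios of −0.73, −0.76, −0.74 and −0.11. Endothelial markers had a summed level of 410 CPM in dKO and 950 CPM in WT, with 13 of 16 lower and 0 higher and a median of −1.53. Tek, Cldn5 and Eng stayed inside the 2-fold line, with log2 ratios of −0.25, −0.28 and −0.69. Fibro-adipogenic progenitor markers had a summed level of 2264 CPM in dKO and 3117 CPM in WT, with 6 of 10 lower and 0 higher. Their median was −1.26, while Col3a1, Cd34 and Lum had log2 ratios of 0.02, 0.03 and −0.14. Of the genes of the sorted proteins, Pecam1 (CD31) had 1673 counts in dKO and 4745 in WT, and Ly6a (Sca1) had 386 in dKO and 2316 in WT. In such bulk libraries, fewer cells of a type and less RNA per cell cannot be told apart. Irf8, expressed by myeloid cells, was 2.02-fold higher in dKO, Irgm1, Gbp2 and Igtp were higher as well, and Rsad2, Oas2, Gvin1 and Ifi27l2a were lower. The part of immune, endothelial or other cells in any of these differences, higher or lower, was not tested.

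**Figure D5:**
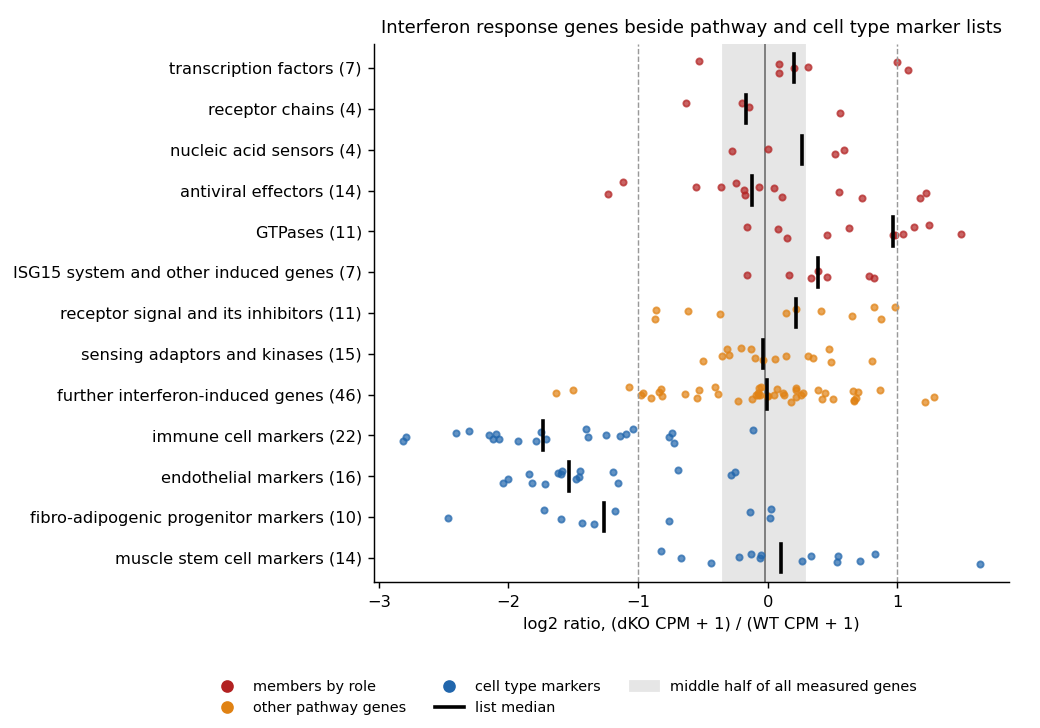
Log2 ratio of (dKO CPM + 1) over (WT CPM + 1) for measured genes of each member role (red), the other pathway lists (orange) and the cell type marker lists (blue), with list medians as black bars, the interquartile range of all measured genes in grey and dashed lines at 2-fold. The GTPase median stands at 0.97, and the immune and endothelial medians stand at −1.73 and −1.53.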

How the data were processed

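The authors deposited raw read counts for 1 dKO and 1 WT library in a table of transcripts, each with its length and Entrez ID, per the file headers. The build mm10 and the tools bedtools, TopHat2 (2.0.9) and edgeR are listed without a role, per the submitters' processing notes. The counting rule, annotation and strand were not given in the sources used here. Reads of overlapping genes (15 of 47 members overlap another annotated gene, 4 a protein-coding one) therefore cannot be told apart. Rows were summed per gene ID (6494 of 24532 IDs have several rows), and 24462 IDs matched a symbol in RefSeq's GRCm38.p6 gene table. Tmem173, Mb21d1 and Mnda were matched by synonym.

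Libraries were scaled with TMM (trimmed mean of M values) factors from edgeR 4.0.16 (R 4.3.3), 0.916 for dKO and 1.09 for WT, which brought both effective sizes close to each other. The pseudocount was 1 CPM. Folds had exact conditional binomial (Clopper-Pearson) and levels exact Poisson 95% intervals; amplified reads are not independent molecules, so both cover counting error only. A count of 0 was set to a floor of 3 counts per library (0.075 CPM). With 1 library per group no test was made. The steps were tested on simulated counts.

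The members and all lists were chosen with earlier results of these data known. Members 2-fold apart by either row rule and the 2 most abundant of each role were to be described, and the others are given too; other pathway lists name up to 6 members that are 2-fold apart, or else the 2 most abundant. Ifit3b, Tgtp2, Gm12185, Gbp4, Gbp5, Gbp9, Jak2, Socs1, Tyk2, Fcer1g, Col3a1, Cd34, Lum, Ifnab, Ifnb1 and Ifng were named after their values were seen. So were Ifi27, Cd68, Cd14, Itgax, Cd79a, Tek, Cldn5 and Eng. Promoters were printed for members 2-fold apart, at most 6, largest ratio first. The spacing of motifs was looked at after the data were seen. Some genes are not reported here, including the Cre-deletable gene of the dKO genotype. Alternatives were median-ratio scaling, library totals, the highest row, other pseudocounts, count minimums and folds, and removal of a cubic trend on level and transcript length.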

Additional observations from a re-analysis of the deposited data

How the results depend on the processing

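No paired analysis was possible because each group has 1 library. The count of 8 members higher in dKO was 2 under library totals (Ifit3 and Irgm1), 3 with a pseudocount of 5 CPM (Gbp2, Igtp and Irgm1; 1.03% of all measured genes), 15 by a 1.5-fold rule (8.98% of all measured genes) and 0 by a 4-fold rule (0.168%). The count of 2 lower members was 0 with that pseudocount (1.26%), with the trend on level and length removed (2.79%) and by a 4-fold rule (0.376%), and 1 among genes with at least 100 counts. The members' median of 0.21 was −0.047 under library totals; relative to all genes it was 0.23 under TMM, 0.19 under totals, 0.12 with the trend removed and 0.41 by the highest row. The median of the further interferon-induced genes was −0.20 under totals. The immune marker median was −2.57 with a pseudocount of 0.1 CPM and −0.82 with 5 CPM. Under totals and under the pseudocount of 5 CPM the construction sets the move; for the trend removal the cause was not tested. With median-ratio scaling and with no count minimum, the counts of 8 and 2 were as under TMM. By the rule that both the sum and the highest row pass 2-fold, chosen after seeing the data, they were 8 and 2, and with no pseudocount, likewise added, 10 and 3. Of the 47 log2 ratios, none of the 10 past 2-fold turned sign under the 6 settings that can change a ratio. A pseudocount cannot turn a sign. Median-ratio scaling and library totals moved the members by medians of 0.0079 and −0.24, too little to turn a ratio past 2-fold. For these settings the outcome was thus fixed by construction. For members under 100 counts (Oas2, Oas1a, Usp18, Mx1 and Ifi44), depth limits what can be said.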
